A study of Mus musculus with 35 samples.

Results

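The mitochondrially encoded genes are the genes carried by the small circular chromosome inside mitochondria. They were taken as every gene name that starts with mt- in the count tables, which gave 37 of 49568 gene names: 13 messenger RNAs (mRNAs), 2 ribosomal RNAs (rRNAs) and 22 transfer RNAs (tRNAs). RNA was measured by polyA sequencing of a block of tissue holding the hypothalamus, the brain region that controls hunger and hormone release, in male mice of the strain B6/J. All groups were collected at Zeitgeber time 16, counted in hours from lights-on. Of the control mice, 10 had food ad libitum and 10 had none for the last 16 h, from lights-on. Mice with the PER2 variant S662D, an aspartate in place of a serine in this protein of the circadian clock, gave 5 fed and 5 fasted libraries. A group labelled Per2 knockout gave 5 fasted libraries and has no fed counterpart. How the alleles were made and the age of the mice are not given in the sources used here.

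Mammalian mitochondrial DNA is transcribed from both strands into long RNAs that span many genes. The tRNAs lie between many of the other genes, and their excision releases most of the mRNAs and rRNAs. Most of these then receive short A tails. The mRNAs encode core subunits of the respiratory chain, the rRNAs and tRNAs serve the mitochondrial ribosome, and all other mitochondrial proteins come from nuclear genes. Neurons rely on this chain for most of their ATP.

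Of the 37 genes, 28 lie on the plus strand and 9 on the minus strand of the mitochondrial chromosome (mm10 coordinates). The minus-strand genes are mt-Nd6 and 8 tRNAs. The results on single tRNAs turn on mt-Te, mt-Tk, mt-Tl2 and mt-Tp, which carry glutamate, lysine, leucine and proline. Their sequences (GENCODE M21, GRCm38, 5′ to 3′ on each gene's own strand) are shown with the anticodon in capitals. Each of these genes is shorter than a sequencing read of 150 bases.
mt-Te (chrM:14071-14139, minus strand): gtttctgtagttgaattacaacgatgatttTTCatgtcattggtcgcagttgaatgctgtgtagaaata
mt-Tk (chrM:7700-7764, plus strand): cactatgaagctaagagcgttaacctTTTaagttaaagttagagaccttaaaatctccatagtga
mt-Tl2 (chrM:11671-11741, plus strand): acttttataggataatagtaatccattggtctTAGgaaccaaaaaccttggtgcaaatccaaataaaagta
mt-Tp (chrM:15356-15422, minus strand): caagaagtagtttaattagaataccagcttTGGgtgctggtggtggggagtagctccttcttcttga
A further sequence matters for the mRNAs: mt-Atp8 and mt-Atp6, subunits of ATP synthase, share 43 bases, shown with the start codon of mt-Atp6 in capitals.
mt-Atp8 and mt-Atp6 overlap (chrM:7927-7969, plus strand): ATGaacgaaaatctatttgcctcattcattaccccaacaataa
Fragments that touched both of these genes were counted for neither, and 162 bases lie between the annotated neighbours of mt-Atp8, which are mt-Tk and mt-Atp6.

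Libraries held 17959586 to 37027342 counts, and the deepest were from S662D mice. Per2 itself had 30.3 ± 2.00 CPM (counts relative to the library's scaled size; SD, n = 5) in the labelled knockout and 29.0 ± 2.45 CPM in fasted controls (n = 10; log2 fold change 0.06, edgeR adjusted p = 0.935), so it was not reduced there, and the group is called by its label throughout. In S662D, Per2 had 18.7 ± 1.98 CPM fed and 19.9 ± 2.38 CPM fasted (SD, n = 5 each). It was lower there than in controls, by -0.59 fed and -0.55 fasted (log2, edgeR adjusted p = 1.2e-07 and 6.8e-07). All 11 hypothalamic marker genes were detected, with a summed level of 535 to 767 CPM per library over all groups, and no gene of any marker list was at 0 in all libraries. The file headers number the libraries in separate ranges for controls 1 to 5, controls 6 to 10, the labelled knockout and S662D, so that outside the controls the effect of genotype and that of library range cannot be told apart. In addition, 6 S662D libraries (replicates 2, 3 and 4, fed and fasted) carry an additional final digit whose meaning is not stated. These 6 stood apart: 6 long nuclear RNAs (Malat1, Meg3 and others) summed to 3293 CPM (fed) and 2459 CPM (fasted) in them, against 4530 and 4768 CPM in the other S662D libraries and 4237 to 5087 CPM in control libraries. Comparisons of mitochondrial genes and of nuclear gene lists that involve S662D are therefore given with and without them.

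Mitochondrial transcripts took 6.24% to 9.08% of all counts in a library. The mRNAs held nearly all of this: in fed controls they took 6.47% ± 0.225 of all counts, the rRNAs 0.560% ± 0.0304 and the tRNAs 0.0143% ± 0.000459 (SD, n = 10). A single gene, mt-Co1 (chrM:5328-6872), which encodes the catalytic subunit of cytochrome c oxidase, held 28.5% of all mitochondrial counts. Because the RNA was selected for A tails, the rRNA and tRNA values describe the molecules recovered by that selection.

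Per length, mt-Co1 was the most abundant member in fed controls, at 13012 ± 401 CPM per kilobase (SD, n = 10). It was followed by mt-Atp6 at 8771 ± 485 and mt-Co2, another oxidase subunit, at 8545 ± 425 CPM per kilobase, which did not differ beyond their spread. The third oxidase subunit, mt-Co3, had 7516 ± 287 CPM per kilobase and mt-Cytb, the cytochrome b subunit of complex III, 5369 ± 246. Subunits of NADH dehydrogenase (complex I) covered a wide range, from mt-Nd1 at 4828 ± 239 and mt-Nd4 at 4371 ± 201 down to mt-Nd3 at 1136 ± 170 CPM per kilobase. The rRNA mt-Rnr1 had 2302 ± 160 CPM per kilobase. The other rRNA, mt-Rnr2 (2122 ± 107), and the complex I mRNAs mt-Nd6 (2122 ± 149) and mt-Nd5 (2068 ± 162 CPM per kilobase) did not differ beyond their spread. The mt-Nd6 value includes fragments copied from the opposite strand, since counting used no strand. The lowest mRNA value was that of mt-Atp8, at 155 ± 25.9 CPM per kilobase. It lay below those of the tRNAs mt-Tp, mt-Tc, mt-Tn, mt-Te and mt-Ty (172 to 687 CPM per kilobase). The mt-Atp8 value was divided by all 204 bases of the gene, although fragments that also touched mt-Tk or mt-Atp6 were not counted. It therefore does not measure how abundant mt-Atp8 RNA is relative to the other mRNAs, and tRNA values are lowered in the same way.

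**Figure D1:**
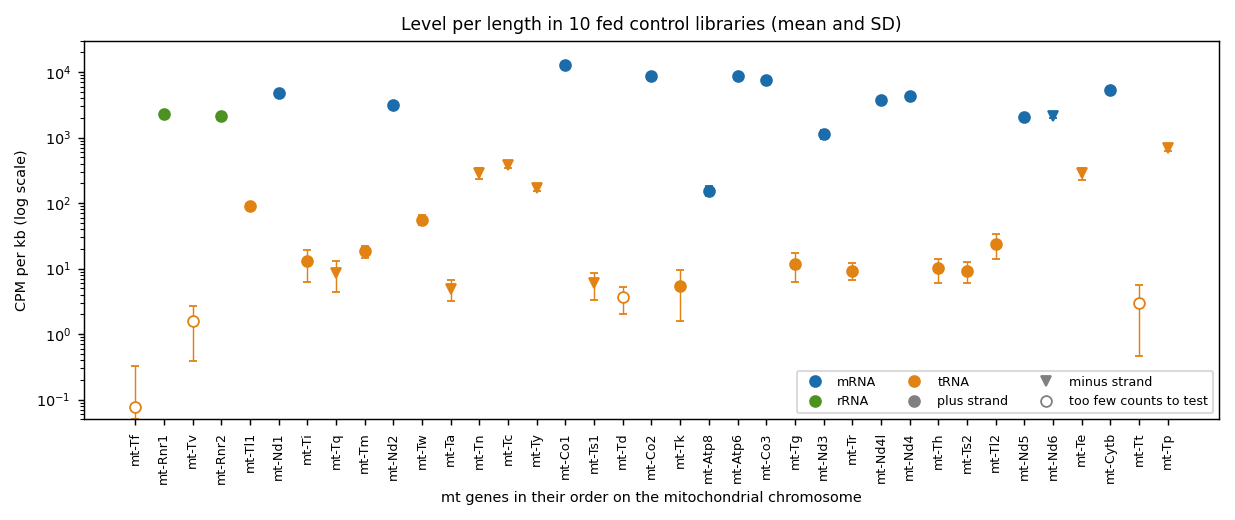
Mean level per length (CPM per kilobase, log axis) of each of the 37 mitochondrial genes in the 10 fed control libraries, in gene order, with the SD as bars that are cut at the axis for mt-Tf; colour gives the RNA class, triangles the minus strand and open symbols the 4 genes with too few counts to test. The mRNAs and rRNAs lie between 1136 and 13012 except mt-Atp8 at 155, and the highest tRNAs are on the minus strand.

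Most tRNA counts fell on some of the minus-strand genes. Of all tRNA counts, 86.5% fell on the 8 minus-strand tRNA genes. Every tRNA gene with at least 100 counts in every library was on that strand: mt-Tp (705 to 1530 counts per library), mt-Tc (391 to 881), mt-Tn (283 to 730), mt-Te (232 to 695) and mt-Ty (152 to 459). The minus-strand genes did not share a high level: mt-Tq had 3 to 22 counts per library, mt-Ta 3 to 17 and mt-Ts1 2 to 17. Among plus-strand tRNAs the highest was mt-Tl1, with 85 to 222 counts. Too few counts to be tested were found for mt-Tf (9 counts in all libraries together), mt-Tv (103), mt-Tt (143) and mt-Td (229), which left 33 members tested. Counting used no strand, so fragments copied from the opposite strand of a tRNA gene are included in these values. Fragments that also touched a neighbouring gene were not counted, and the room between neighbours differed. It was 105 bases for mt-Tn and 100 for mt-Tc, against 58 to 75 for the other tRNAs with a gene on both sides. In coordinate order mt-Tp has no gene after it and mt-Tf none before it. The part of this room in the tRNA counts was not tested.

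Part of the mitochondrial signal was also counted under nuclear gene names. Transcripts of 15 nuclear gene names share 50-base stretches with mitochondrial mRNAs or rRNAs, 14 of them are in the tables, and every alignment of a fragment that maps to several places was counted. The copy of mt-Co3, Gm28437, received 90573 to 206803 counts per library, next to 90579 to 206855 for mt-Co3 itself. Gm10925, which shares stretches with mt-Atp6, received more counts (119146 to 275633) than mt-Atp6 (97707 to 220893). Summed over these names, the copies held 39.3 to 42.2 counts per 100 mitochondrial counts in every library, with group means of 40.4 (fed S662D) to 41.8 (labelled knockout). Stretches of mt-Co2, mt-Atp6, mt-Co3, mt-Nd3 and mt-Nd4l shared with such names covered 98.0% to 100% of the gene, against 51.1% for mt-Co1 and 8.19% for mt-Nd2, and mt-Nd1, mt-Nd6 and mt-Cytb shared none.

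Fasting in control mice was compared first, to see whether food withdrawal moved mitochondrial transcripts. Over all 20 control libraries no member was called. The mitochondrial share was 6.69%, 6.99% and 7.37% (lowest, median, highest) in fed and 6.81%, 7.28% and 8.70% in fasted controls. The groups overlapped: the difference of means, 0.294 percentage points, was smaller than the pooled SD of 0.440. Without fasted replicate 5, the highest, it was 0.143 percentage points. With edgeR's quasi-likelihood test 0 of 33 members had an adjusted p below 0.05 (DESeq2 also called 0), where 3.88% of all genes were called. An unadjusted p below 0.05 was found for 2 members, beside 13.3% of all genes. The median log2 fold change of the 15 mRNAs and rRNAs was 0.07, with 13 of 15 above 0, and that of all genes 0.00. Without fasted replicate 5 the median was 0.04.

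**Figure D2:**
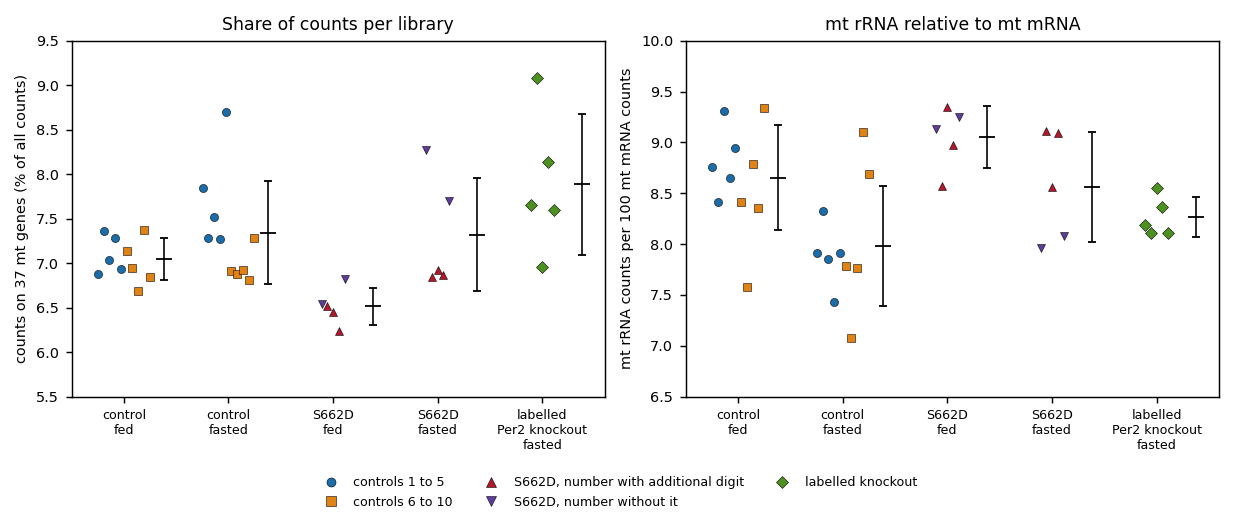
Left: counts on the 37 mitochondrial genes as a percentage of all counts; right: mitochondrial rRNA counts per 100 mitochondrial mRNA counts. Each symbol is 1 library, shaped by library range, with mean and SD at the right of each group, and both axes start above 0. Fed S662D libraries are low at left (6.24% to 6.82%), and fasted groups reach 8.27% to 9.08%.

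The pooled result joined 2 sets of control libraries, controls 1 to 5 and controls 6 to 10. In the fit that split them, 6 members were higher on fasting within controls 1 to 5: mt-Te, mt-Atp6, mt-Nd4, mt-Nd5, mt-Nd6 and mt-Cytb (background 11.5% of all genes). Within controls 6 to 10, 1 member was lower, mt-Te, where 5.74% of all genes were called. The share of mitochondrial counts was 7.10% ± 0.214 fed and 7.72% ± 0.592 fasted in controls 1 to 5, but 7.00% ± 0.263 and 6.96% ± 0.189 in controls 6 to 10 (SD, n = 5 each). These comparisons, and the test of the difference between the sets, were added after the data had been seen.

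In controls 1 to 5 the other called members were mRNAs of complexes I, III and V, among them mt-Atp6. mt-Nd4 had 5847, 6196, 5837, 6114 and 5770 CPM fed and 6977, 6392, 6609, 6629 and 7994 CPM fasted, with no overlap (log2 fold change 0.22, SE 0.07, edgeR adjusted p = 0.0315). mt-Nd5 had 3764, 3969, 3443, 3795 and 3432 CPM fed and 4332, 3970, 4221, 4037 and 4962 CPM fasted, which touched without overlapping (0.23, SE 0.07, adjusted p = 0.0272). mt-Nd6 is annotated on the opposite strand from these, but counting used no strand. It had 1062, 1186, 1044, 1084 and 972 CPM fed and 1389, 1158, 1223, 1147 and 1458 CPM fasted, and the groups overlapped at fed replicate 2 (0.25, SE 0.07, adjusted p = 0.0244). mt-Cytb had 6075, 6462, 6079, 6401 and 5891 CPM fed and 6996, 6403, 6821, 6515 and 7856 CPM fasted, and the groups overlapped at fed replicate 2 (0.16, SE 0.05, adjusted p = 0.0353). Fasted replicate 5 was the highest library in each of them. Without it mt-Te alone was called, and mt-Nd4 had 0.16 (adjusted p = 0.135), mt-Nd5 0.17 (adjusted p = 0.121), mt-Nd6 0.20 (adjusted p = 0.109) and mt-Cytb 0.11 (adjusted p = 0.164). Without fed replicate 3 or 5 the count fell from 6 to 2. Further single losses were mt-Cytb without fed replicate 1 (adjusted p = 0.0679) or fasted replicate 1 (adjusted p = 0.0547) or 3 (adjusted p = 0.0526), mt-Nd4 without fed replicate 1 (adjusted p = 0.0590) and mt-Nd6 without fasted replicate 1 (adjusted p = 0.0570).

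For mt-Te the sets moved in opposite directions. In controls 1 to 5 it had 16.8, 18.7, 16.2, 14.2 and 17.2 CPM fed and 22.8, 23.8, 24.0, 25.0 and 29.0 CPM fasted. Every fasted library was above every fed one, with a log2 fold change of 0.58 (SE 0.14, edgeR adjusted p = 0.00700). In controls 6 to 10 it had 20.7, 22.1, 25.2, 27.7 and 17.5 CPM fed and 19.0, 15.4, 16.7, 12.2 and 12.5 CPM fasted. There fasted libraries were lower (log2 fold change -0.58, SE 0.14, edgeR adjusted p = 0.0138), and the groups overlapped at fed replicate 10 and fasted replicate 6. Without fed replicate 9 this second call was lost (log2 fold change -0.50, adjusted p = 0.0677), and without fed or fasted replicate 10 mt-Tg was called as well. The 2 responses differed by -1.16 (SE 0.20, edgeR adjusted p = 0.000953), and over both sets together mt-Te had a log2 fold change of 0.02.

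The difference between the 2 sets was also called for mt-Tg, the glycine tRNA (-1.62, SE 0.46, edgeR adjusted p = 0.0141), and mt-Atp6 (-0.32, SE 0.11, adjusted p = 0.0401), 3 of 33 members where 14.4% of all genes were called. mt-Tg had 7 to 13 counts in fed and 12 to 23 in fasted libraries of controls 1 to 5, and 9 to 27 and 6 to 21 counts in controls 6 to 10. mt-Atp6 had 5639, 6287, 5801, 6024 and 5661 CPM in fed and 7124, 6502, 6904, 6489 and 8320 CPM in fasted controls 1 to 5, with no overlap. In controls 6 to 10 it had 5986, 6059, 6069, 6647 and 5558 CPM fed and 5917, 5944, 5759, 5582 and 5963 CPM fasted, which overlapped. Of the mt-Atp6 calls, the one within controls 1 to 5 was lost without fasted replicate 5 (log2 fold change 0.20, adjusted p = 0.0971) or fed replicate 5 (0.25, adjusted p = 0.0526). The called difference between the sets was lost without fasted replicate 5 (-0.26, adjusted p = 0.0977), fed replicate 9 (-0.29, adjusted p = 0.0941) or any of 9 other single libraries (fed 1, 3, 4, 5, 7 or 8 or fasted 7, 8 or 9; adjusted p = 0.0506 to 0.0695). Without fed replicate 10 or fasted replicate 1, 2 or 4, 5 or 6 members differed between the sets. The summed level of 6 oligodendrocyte markers moved in opposite directions in the 2 sets. It went from 9390 CPM fed to 8446 fasted in controls 1 to 5, and from 8344 to 9069 in controls 6 to 10. Ependyma and tanycyte markers did so too (52.2 to 42.8 and 48.2 to 51.6 CPM). So did choroid plexus markers (199 to 46.6 and 42.6 to 584 CPM, the last with an SD of 747). Summed markers of red cells, pituitary and hypothalamus also differed in direction, and those of neurons, astrocytes, microglia and endothelium did not. The part of these tissues in these results was not tested.

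**Figure D3:**
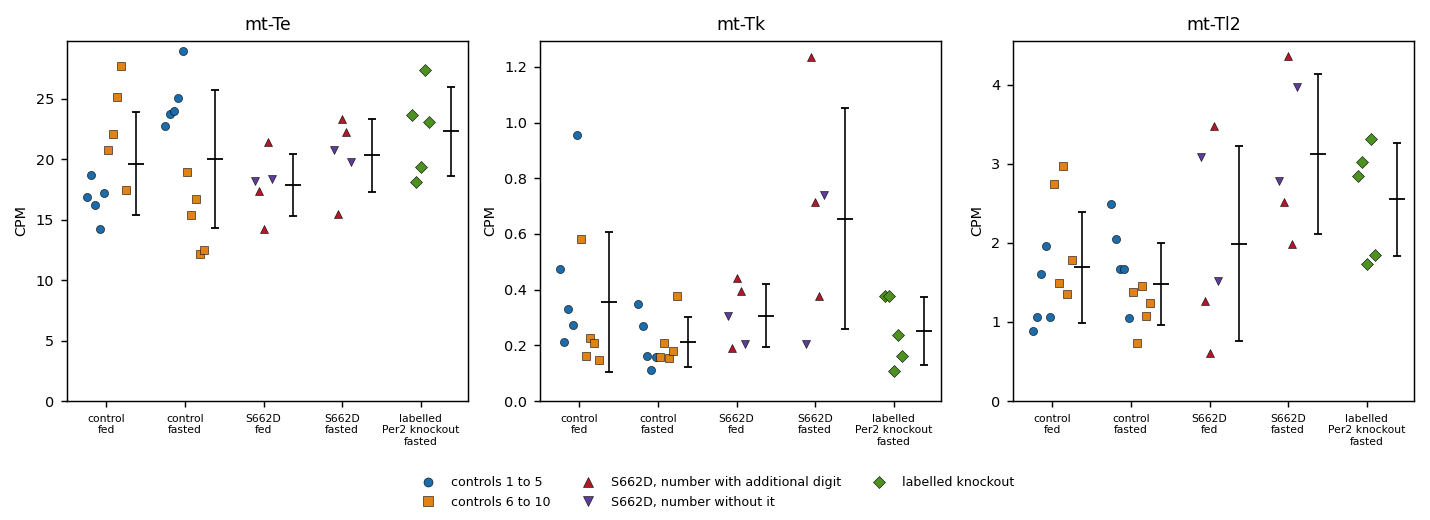
Level in CPM of the tRNA genes mt-Te, mt-Tk and mt-Tl2 in each library, with mean and SD at the right of each group and symbols by library range. For mt-Te the circles (controls 1 to 5) lie low fed and high fasted and the squares (controls 6 to 10) the reverse; mt-Tk is highest in a fasted S662D library, at 1.24 CPM.

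In S662D mice 3 mitochondrial mRNAs rose on fasting. The share of counts was 6.54%, 6.52%, 6.46%, 6.24% and 6.82% in fed S662D libraries and 8.27%, 6.85%, 6.93%, 6.86% and 7.70% in fasted ones, for replicates 1 to 5. Every fasted library was above every fed one, by 0.804 percentage points on average. Of 33 members, 3 were called higher and 0 lower: mt-Cytb, mt-Nd1 and mt-Co1 (background 2.64% of all genes). All 15 mRNAs and rRNAs had a log2 fold change above 0, with a median of 0.21 where the median of all genes was 0.00.

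mt-Cytb (chrM:14145-15288) had 5665, 5814, 5802, 5630 and 6086 CPM in fed and 8062, 6476, 6556, 6354 and 7051 CPM in fasted S662D libraries. The groups did not overlap, and the log2 fold change was 0.25 (SE 0.06, edgeR adjusted p = 0.0105). mt-Nd1 (chrM:2751-3707), a membrane subunit of complex I, had 4259, 4073, 4060, 3972 and 4112 CPM fed and 5461, 4412, 4510, 4520 and 5551 CPM fasted. It rose by 0.26 (log2, SE 0.07, edgeR adjusted p = 0.0280), again without overlap. mt-Co1 had 18838, 18058, 18250, 17703 and 19247 CPM fed and 24203, 20523, 20153, 19751 and 21872 CPM fasted, with no overlap, and rose by 0.21 (log2, SE 0.06, edgeR adjusted p = 0.0335). In each of these genes fasted replicates 1 and 5, whose library numbers lack the additional digit, were the highest of all 10 S662D libraries.

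The 3 calls rested on few libraries. Without fasted replicate 1 none of them was kept (mt-Cytb 0.19, adjusted p = 0.0593; mt-Nd1 0.21, adjusted p = 0.0907; mt-Co1 0.16, adjusted p = 0.129, all edgeR). mt-Nd1 was also lost without fasted replicate 5 (0.21, adjusted p = 0.108) or fed replicate 2 (0.25, adjusted p = 0.0670), 3 (0.25, adjusted p = 0.0667) or 4 (0.25, adjusted p = 0.0782), and mt-Co1 without fasted replicate 2 (0.22, adjusted p = 0.0601) or 5 (0.20, adjusted p = 0.0723) or fed replicate 2 (0.20, adjusted p = 0.0913), 3 (0.21, adjusted p = 0.0783) or 4 (0.20, adjusted p = 0.102). Among the libraries with the digit alone, the median of the 15 mRNAs and rRNAs was 0.15 with 13 of 15 above 0, and among those without it 0.33 with 15 of 15 above 0. In either 0 members were called, beside 3.71% and 0.0373% of all genes. With only the 2 S662D groups in the fit, 2 other members, mt-Atp6 and mt-Nd2, were called in place of these 3 (mt-Cytb adjusted p = 0.0591), where 1.60% of all genes were. With library size alone as scaling mt-Cytb was the single call, where 3.27% of all genes were called. Summed oligodendrocyte markers were 8188 ± 621 CPM in fed and 9306 ± 293 CPM in fasted S662D libraries (SD, n = 5). Astrocyte markers had 1993 ± 66.8 and 2159 ± 116 CPM, and neuron markers 3443 ± 95.6 and 3650 ± 140 CPM. Markers of microglia, endothelium, ependyma and choroid plexus had lower means in fasted than in fed S662D libraries. Their part in the result was not tested, and in bulk tissue fewer cells of a type and less RNA per cell cannot be told apart.

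2 members of complex I, picked after their values were seen, had the largest and one of the smaller log2 fold changes among the mRNAs. mt-Nd3 had 327, 319, 321, 285 and 359 CPM fed and 564, 347, 434, 396 and 521 CPM fasted, with a log2 fold change of 0.49 (edgeR adjusted p = 0.0678; DESeq2 called it higher). The libraries overlapped only at fasted replicate 2, which was below fed replicate 5. mt-Nd5, the last gene on the plus strand before mt-Cytb, had 0.12 (adjusted p = 0.529).

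The test of whether S662D mice responded to fasting differently from controls called 0 of 33 members, where 0% of all 18063 genes were called (edgeR's quasi-likelihood test, and DESeq2 also called 0). An unadjusted p below 0.05 was found for 7 members, beside 6.37% of all genes. The differences of the 15 mRNAs and rRNAs were all above 0, from 0.01 to 0.39 with a median of 0.15 (log2). This depended on the libraries: with controls 1 to 5 alone 11 of 15 were above 0 (lowest -0.11, median 0.10) and with the digit libraries alone 12 of 15 (lowest -0.18, median 0.09). The median was 0.21 with controls 6 to 10 alone and 0.26 with the S662D libraries without the digit, with 15 of 15 above 0 in each, and 0 members were called in any of these. The lowest adjusted p among members was 0.762, for mt-Tk. The responses of the 2 genotypes were thus not shown to differ, although 3 members were called in S662D and 0 in controls.

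**Figure D4:**
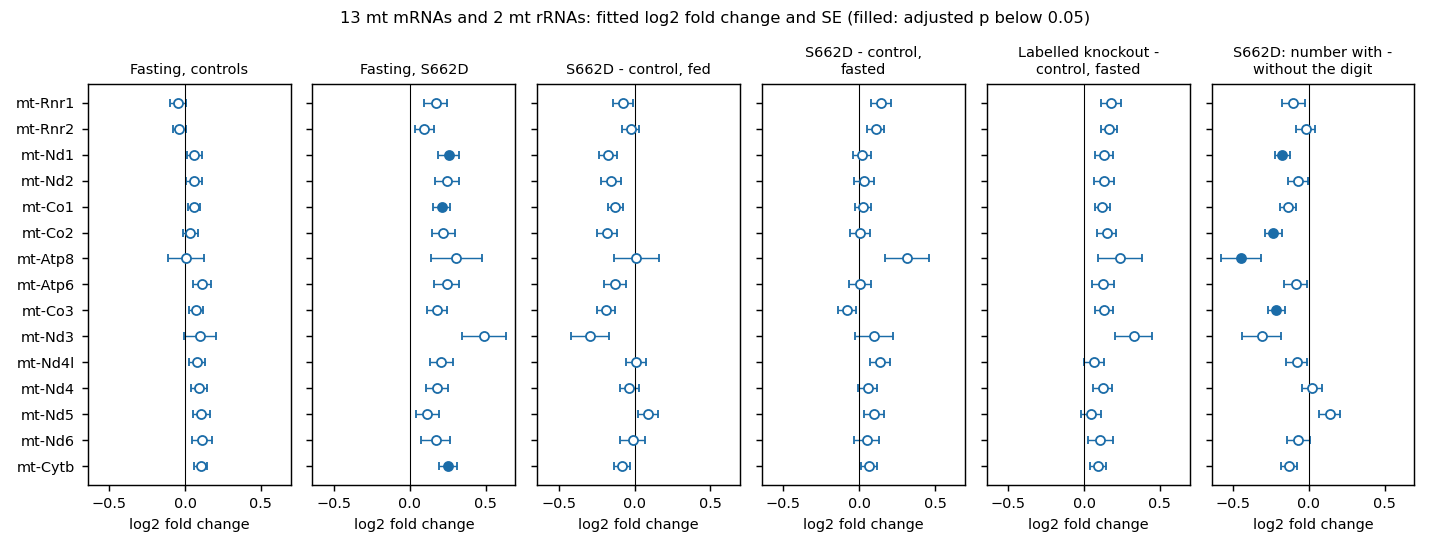
Fitted log2 fold changes (points) and SE (bars) of the 13 mitochondrial mRNAs and 2 rRNAs in 6 comparisons, filled where the adjusted p was below 0.05. Points lie right of 0 for all 15 genes on fasting in S662D. They also do so for the labelled knockout against control, both fasted. For S662D against control, both fed, 12 of 15 lie left of 0.

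In fed mice no member passed the test between S662D and controls, and 12 of the 15 mRNAs and rRNAs had a log2 fold change below 0 (median -0.08). The mitochondrial share in fed S662D, 6.24% to 6.82%, overlapped only the bottom of the range in fed controls (6.69%, 6.99% and 7.37%, lowest, median, highest). The means differed by -0.532 percentage points, more than the pooled SD of 0.220. The digit libraries had a share of 6.41% ± 0.147 (SD, n = 3) and the other fed S662D libraries 6.54% and 6.82%. The median log2 fold change was -0.12 with the digit libraries alone and -0.10 with the others. Of 33 members 0 were called by edgeR (background 4.69% of all genes), and DESeq2 called 1, mt-Co3. At an unadjusted p below 0.05 there were 6 members, beside 21.0% of all genes. mt-Co3 came closest, with 5323, 5032, 5001, 4725 and 5798 CPM in S662D and 5579, 5963 and 6187 CPM (lowest, median, highest) in controls, and a log2 fold change of -0.19 (SE 0.06, edgeR adjusted p = 0.0508). Only S662D replicate 5 overlapped the controls. Without S662D replicate 1 (-0.20, adjusted p = 0.0420) or 5 (-0.23, adjusted p = 0.0140) mt-Co3 was called. With only these 2 groups in the fit 5 members were called lower, where 5.86% of all genes were called: mt-Co1, mt-Co2, mt-Co3, mt-Nd1 and mt-Nd2. With the digit libraries as the only S662D libraries 4 of 34 were called lower, where 16.9% of all genes were called, and with the others 0, where 0.0854% were. The count with the digit libraries was thus not above that over all genes.

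In fasted mice 2 tRNAs were called higher in S662D than in controls, where 5.57% of all genes were called. The mitochondrial share was 7.32% ± 0.638 (SD, n = 5) in S662D and 7.34% ± 0.577 (SD, n = 10) in controls. It was 6.88% ± 0.0435 (SD, n = 3) in the digit libraries and 8.27% and 7.70% in the other S662D libraries, and 7.72% ± 0.592 in controls 1 to 5 and 6.96% ± 0.189 in controls 6 to 10 (SD, n = 5 each). The 15 mRNAs and rRNAs had a median log2 fold change of 0.05, and none was called. Its sign depended on the libraries: the median was -0.03 with the digit libraries alone (5 of 15 above 0), 0.19 with the other S662D libraries (15 of 15), -0.04 against controls 1 to 5 (6 of 15), 0.16 against controls 6 to 10 (14 of 15) and 0.00 without S662D replicate 1 (9 of 15). mt-Tk had 6, 32, 16, 8 and 25 counts (0.203, 1.24, 0.714, 0.378 and 0.741 CPM) in S662D and 0.111, 0.170 and 0.377 CPM (lowest, median, highest; 2 to 7 counts) in controls. Replicates 2, 3 and 5 of S662D were high, replicate 4 lay just above the highest control and replicate 1 among the controls, with a log2 fold change of 1.60 (SE 0.37, edgeR adjusted p = 0.00962). mt-Tl2 had 82, 65, 98, 42 and 134 counts (2.78, 2.51, 4.37, 1.98 and 3.97 CPM) in S662D and 0.729, 1.41 and 2.49 CPM in controls. It was 1.08 higher (log2, SE 0.28, edgeR adjusted p = 0.0205), and S662D replicate 4 overlapped the controls.

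Both calls rest on small counts. The mt-Tk call was lost without S662D replicate 2 (1.24, adjusted p = 0.101) and the mt-Tl2 call without S662D replicate 3 (0.94, adjusted p = 0.0913, both edgeR). Neither was called when only the S662D libraries without the digit were used (mt-Tk 1.15, adjusted p = 0.997; mt-Tl2 1.19, adjusted p = 0.247), nor with the digit as a term in the fit (adjusted p = 0.632 and 0.261). The mt-Tl2 call was also lost against controls 1 to 5 alone (0.81, adjusted p = 0.120) and against controls 6 to 10 alone (1.42, adjusted p = 0.0691). With the digit libraries alone 5 of 34 members were called, where 17.1% of all genes were: mt-Tk, mt-Tl2 and mt-Ty higher and mt-Co3 and mt-Tp lower.

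The libraries labelled Per2 knockout had the highest mean mitochondrial share of the 5 groups, 7.89% ± 0.790 (SD, n = 5), with 7.66%, 9.08%, 6.96%, 8.14% and 7.60% in replicates 1 to 5. They overlapped the fasted controls (6.81%, 7.28% and 8.70%, lowest, median, highest), and the difference of 0.544 percentage points was smaller than the pooled SD of 0.692. Without replicate 2 it was 0.245 percentage points. edgeR called 0 of 33 members (DESeq2 also called 0), in a comparison that called 0.0277% of all genes. At an unadjusted p below 0.05 there were 9 members, beside 6.07% of all genes. All 15 mRNAs and rRNAs were above 0, with a median of 0.13 (log2), from mt-Nd5 at 0.05 to mt-Nd3 at 0.33. Without replicate 2 the median was 0.06, with 13 of 15 above 0. The libraries did not share this evenly: replicate 2 ranked among the 5 highest of all 35 libraries for 15 of the 15 genes and replicate 4 for 14. Against controls 1 to 5 alone the median was 0.04, and against controls 6 to 10 alone 0.22 with mt-Nd2 called, where 0.556% of all genes were.

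Between the fasted libraries labelled knockout and the fasted S662D libraries, 3 members were called, where 7.34% of all genes were. mt-Co3 had 6752, 8038, 5898, 6778 and 6493 CPM in the labelled knockout and 6821, 5648, 5385, 5299 and 6131 CPM in S662D. The groups overlapped through S662D replicates 1 and 5, with a log2 fold change of 0.21 (SE 0.07, edgeR adjusted p = 0.0410). mt-Tp had 49.5, 70.8, 41.8, 47.9 and 40.0 CPM in the labelled knockout and 44.1, 38.04, 32.1, 36.2 and 45.3 CPM in S662D, with a log2 fold change of 0.35 (SE 0.11, edgeR adjusted p = 0.0442). These groups overlapped, and replicate 2 of the labelled knockout was far above the rest. mt-Tk was lower, at 0.375, 0.379, 0.109, 0.237 and 0.163 CPM in the labelled knockout (log2 fold change -1.35, SE 0.44, edgeR adjusted p = 0.04998), which overlapped S662D replicates 1 and 4.

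These 3 calls rested on few libraries. mt-Tk, with 2 to 8 counts per labelled knockout library, kept its call in 3 of 19 alternatives, and mt-Co3 and mt-Tp kept theirs in 11 of 21 each. Without replicate 2 of the labelled knockout mt-Co3 had 0.15 (adjusted p = 0.199), mt-Tp 0.19 (adjusted p = 0.244) and mt-Tk -1.54 (adjusted p = 0.0662), and 0 members were called. The count was 0 as well without replicate 1 or 4 of the labelled knockout or replicate 2, 3 or 4 of S662D. Against the S662D libraries without the digit 0 members were called (mt-Co3 0.07, adjusted p = 0.845), where 0.139% of all genes were, and against those with it 7 of 34 were, where 16.2% of all genes were. This comparison shares the fasted S662D libraries with the comparison against fasted controls.

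The 6 digit libraries were also compared with the other 4 S662D libraries over both feeding states, in a test added after the data had been seen. edgeR called 4 members lower and 1 higher of 33, where 16.7% of all genes were called, so the members' count was not above that over all genes. Summed oligodendrocyte markers were 7758 ± 254 CPM with the digit and 8727 and 8941 CPM without it in fed mice, and 9277 ± 308 against 9350 ± 386 CPM in fasted mice. Endothelial markers were 184 ± 4.40 against 160 ± 1.07 CPM fed and 174 ± 17.9 against 149 ± 15.9 CPM fasted (SD, n = 3 and 2), and the part of these cells in the result was not tested. mt-Co2 had 5144, 5063 and 4631 CPM fed and 5600, 5422 and 5350 CPM fasted with the digit, and 5359 and 5564 CPM fed and 7046 and 6618 CPM fasted without it. Within each feeding state the sets did not overlap (log2 fold change -0.23, SE 0.06, edgeR adjusted p = 0.00506). mt-Co3 (-0.21, SE 0.05, adjusted p = 0.00569) and mt-Nd1 (-0.18, SE 0.05, adjusted p = 0.0102), whose values are given above, were also lower in every digit library of each feeding state. mt-Atp8 had 31.1, 29.5 and 29.3 CPM fed and 31.1, 33.8 and 30.5 CPM fasted with the digit, and 34.1 and 36.0 CPM fed and 49.0 and 52.4 CPM fasted without it. No digit library reached any of the others (-0.45, SE 0.13, edgeR adjusted p = 0.0189). mt-Ty, the tyrosine tRNA, had 12.4, 11.7 and 13.2 CPM fed and 15.3, 13.2 and 14.1 CPM fasted with the digit, and 14.5 and 10.5 CPM fed and 9.86 and 8.42 CPM fasted without it. It was called higher (0.32, SE 0.11, edgeR adjusted p = 0.0335), although the fed sets overlapped.

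Single libraries changed 4 of these 5 calls. mt-Nd1 was lost without fed replicate 1 (-0.16, adjusted p = 0.0515), mt-Co3 without fasted replicate 1 (-0.17, adjusted p = 0.0607), and mt-Atp8 without fed replicate 5 (-0.43, adjusted p = 0.0731) or fasted replicate 5 (-0.42, adjusted p = 0.0662). mt-Ty was lost without fed replicate 2 (0.32, adjusted p = 0.0511), 4 (0.30, adjusted p = 0.0743) or 5 (0.21, adjusted p = 0.270) or fasted replicate 2 (0.28, adjusted p = 0.0740), 4 (0.32, adjusted p = 0.0505) or 5 (0.26, adjusted p = 0.162).

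mt-Nd5 was not called in this comparison (0.14, adjusted p = 0.183). It and mt-Co3 (-0.21) had opposite signs there. Their ratio was not set beforehand, describes the same libraries and carries no test. As a ratio within a library, mt-Nd5 had 74.2 to 94.1 counts per 100 mt-Co3 counts in the 6 digit libraries and 57.1 to 71.6 in every other library of the series, with no overlap. By group, this ratio was 64.0 ± 4.598 in fed and 65.6 ± 1.43 in fasted controls, 62.0 ± 4.16 in the labelled knockout, and in S662D 88.3 ± 5.47 fed and 79.3 ± 5.87 fasted with the digit (SD, n = 3 each). A ratio shows unequal change and not which gene moved.

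**Figure D5:**
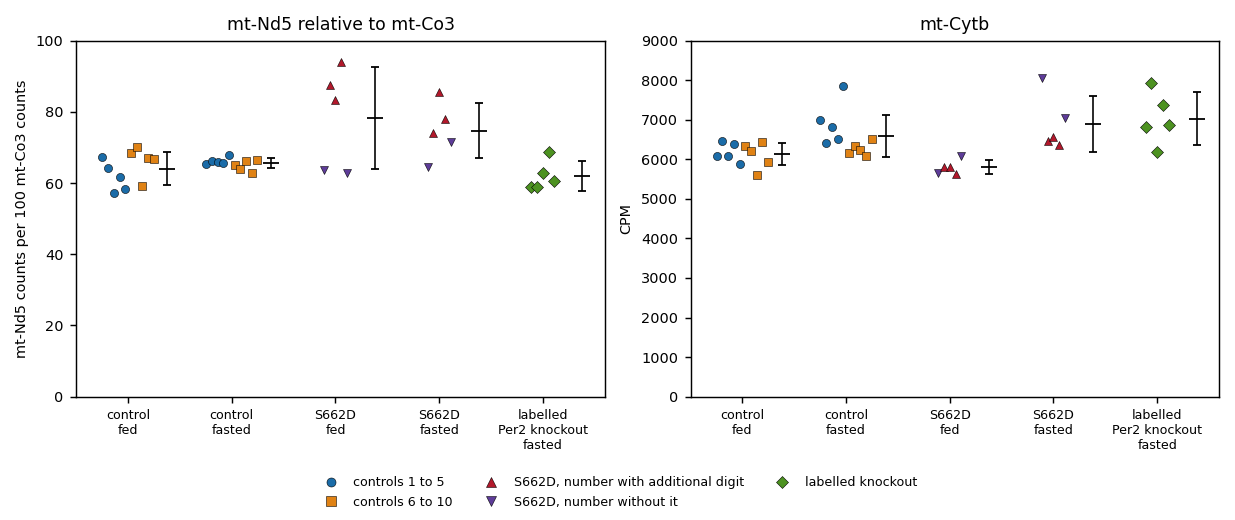
Left: mt-Nd5 counts per 100 mt-Co3 counts, a ratio not set beforehand. Right: mt-Cytb level in CPM. Each symbol is 1 library, with mean and SD at the right of each group. Upward triangles, the S662D libraries with the additional digit, lie above all other libraries at left (74.2 to 94.1 against 57.1 to 71.6), and fasted S662D lies above fed S662D for mt-Cytb at right.

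The mitochondrial mRNA was also divided by complex, over all libraries of each group. Complex IV subunits held 48.1% to 49.6% of mitochondrial mRNA counts as group means, complex I 31.5% to 32.7%, complex III 9.56% to 10.0% and the ATP synthase subunits 9.25% to 9.60%. The rRNAs had 8.65 ± 0.514 counts per 100 mRNA counts in fed and 7.98 ± 0.588 in fasted controls (SD, n = 10), and 9.05 ± 0.303 in fed, 8.56 ± 0.545 in fasted S662D and 8.27 ± 0.194 in the labelled knockout (SD, n = 5). In fasted S662D this ratio was 8.92 ± 0.314 with the digit (SD, n = 3) and 7.96 and 8.08 without it, and in fed S662D 8.96 ± 0.387 and 9.13 and 9.25. Because counting used no strand, the counts of mt-Nd6, the mRNA on the minus strand, include fragments copied from the opposite strand. In a ratio not set beforehand, mt-Nd6 had 27.3 to 30.4 counts per 100 counts of its plus-strand neighbour mt-Nd5 as group means. Fasted S662D libraries were apart in this ratio by the digit, at 24.3 to 27.5 with it and 31.7 and 32.7 without it, and so were fed ones, at most 27.1 with it and 28.1 and 28.5 without it.

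Nuclear genes that serve the mitochondrial genome or build the same complexes were read from 3 lists. The first held 38 genes for transcription, processing and decay of mitochondrial RNA and for replication of the mitochondrial genome. Of these 0 were called on fasting in controls or in S662D (edgeR), with a median log2 fold change of 0.05 in each. Of them 4 and 2 had an unadjusted p below 0.05, beside 13.3% and 14.3% of all genes. In S662D against control 1 was lower fed and 3 fasted, beside 4.69% and 5.57% of all genes called: Ptcd3, a protein of the mitochondrial ribosome, in both states (-0.22 and -0.22, edgeR adjusted p = 0.00771 and 0.00472), with Mterf2 (-0.29, adjusted p = 0.0259) and Mterf3 (-0.25, adjusted p = 0.0117), members of the mitochondrial termination factor family, in the fasted state. In the labelled knockout against S662D 4 were higher, beside 7.34% of all genes called: Mterf2 (0.35, adjusted p = 0.0143) and, named after their values were seen, Ptcd3 (0.25, adjusted p = 0.00431), Pnpt1 (0.23, adjusted p = 0.0418), an RNA-degrading enzyme, and Trnt1 (0.20, adjusted p = 0.0199), which adds the CCA end to tRNAs. With the S662D libraries without the digit 0 of the list were called in each of these 3 comparisons, and with the digit libraries alone 3 (fed), 4 (fasted) and 6 (labelled knockout against S662D), where 16.9%, 17.1% and 16.2% of all genes were called. In the labelled knockout against control 0 were called (3 had an unadjusted p below 0.05, beside 6.07% of all genes).

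Of 76 nuclear genes for respiratory chain subunits, 0 were called on fasting in controls or in S662D (edgeR), with medians of 0.00 and 0.14 (log2). Of them 0 and 24 had an unadjusted p below 0.05, beside 13.3% and 14.3% of all genes. In fed S662D against fed control 6 were lower, beside 4.69% of all genes called, with Cox7b of cytochrome c oxidase the lowest (-0.27, edgeR adjusted p = 0.0488), and the list's median was -0.10 beside -0.08 for the mitochondrial mRNAs and rRNAs and -0.01 for all genes. With the digit libraries alone 25 of the 76 were lower, beside 16.9% of all genes called, and the list's median was -0.18, and with the other S662D libraries 0 were called and the median was 0.00. In fasted S662D against control 0 were called (6 had an unadjusted p below 0.05, beside 20.8% of all genes). In the labelled knockout 0 were called against control (1 had an unadjusted p below 0.05, beside 6.07% of all genes). Against S662D 1 was higher there, beside 7.34% of all genes called: Ndufv2 of complex I (0.18, edgeR adjusted p = 0.0396). It was not called against the S662D libraries without the digit (0.12, adjusted p = 0.567). The digit libraries alone gave 2 calls on fasting, 1 against fasted control and 4 in the labelled knockout against S662D, beside 3.71%, 17.1% and 16.2% of all genes. The others gave 0 in each. Of 12 regulators of mitochondrial biogenesis such as Ppargc1a, 1 was called in 1 comparison, where 7.34% of all genes were called: Sirt1, a deacetylase, was higher in the labelled knockout than in S662D (0.28, edgeR adjusted p = 0.0355). It was called against neither the digit libraries alone (adjusted p = 0.0817) nor the others (adjusted p = 0.287). The digit libraries alone gave 3 other calls against fed control, 1 against fasted control and 1 in the labelled knockout against S662D. Of all genes 16.9%, 17.1% and 16.2% were called there. The libraries without the digit gave 0 in each.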

How the data were processed

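The authors deposited raw counts of fragments per gene, 1 table per library, for 35 libraries. Per the file headers, featureCounts 2.0.1 counted paired fragments against GENCODE vM12 (mm10), reported 1 row per gene name and counted all alignments of fragments that map to several places, with no strand option and no option to count a fragment for more than 1 gene; STAR 2.7.10b and Subread are named in the submitters' processing notes. Counting all alignments adds copies of mitochondrial fragments to nuclear genes, and fragments that touch neighbouring genes are lost, which lowers tRNA and mt-Atp8 counts. Depth was 17959586 to 37027342 counts.

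Genes were kept with filterByExpr by group (minimum count 10), which left 18063 of 49568, scaled with TMM and fitted in 1 model of all 35 libraries (edgeR 4.0.16, glmQLFit robust, glmQLFTest; R 4.3.3). P-values were Benjamini-Hochberg adjusted over all genes tested, and a gene was called below 0.05. The method was tested on simulated data. CPM are counts relative to TMM-scaled library size. SE were derived from the F statistic. Shares carry no test. Alternatives were DESeq2 1.42.0, other scalings and filters, library ranges, a replicate block and leaving out each library; comparisons between library ranges were added after seeing the data. The labels do not say that each library is a separate mouse, so p-values measure the spread between libraries. No 2 libraries were identical or agreed within sampling noise (lowest chi-square per degree of freedom 2.53). Same-numbered libraries were not paired (correlations of deviations -0.19 to 0.24). Every member could be named; those called were given in full, with Per2 and, per list and comparison, the called gene that rose most and the one that fell most. The members, lists and tests were chosen with earlier results of these data known. Coordinates are mm10, and are the same for all 37 in GENCODE M21. No protein sequences were used here.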

Additional observations from a re-analysis of the deposited data

Results flagged for a closer look

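In 185 checks of a member's CPM in 1 group of libraries, 9 had an extreme library far from the others. Chance gives about 1 in 20, and this number is near that. Replicate 5 of the fasted controls was the highest for mt-Cytb (7856 CPM, next 6996), mt-Nd5 (4962 CPM, next 4332) and mt-Nd4l (1383 CPM, next 1218). Among fed controls, mt-Nd4 was high in replicate 9 (6637 CPM, next 6196), mt-Ti, the isoleucine tRNA, was high in replicate 9 (1.97 CPM, next 1.27), mt-Nd4l was low in replicate 8 (867 CPM, next 1062) and mt-Rnr2 was low in replicate 7 (2955 CPM, next 3231). In the labelled knockout mt-Th, the histidine tRNA, was high in replicate 2 (3.03 CPM, next 0.923) and mt-Ts1, a serine tRNA, was low in replicate 5 (0.109 CPM, next 0.3801).

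The fasting response of controls 6 to 10 differed from that of controls 1 to 5 by a test of the difference itself for mt-Te (-1.16 on the log2 scale), mt-Tg (-1.62) and mt-Atp6 (-0.32), 3 of 33 members where 14.4% of all genes were called. mt-Te and mt-Tg kept this call under 24 of 24 alternatives and mt-Atp6 under 13 of 24. What else differed between the library ranges is not given in the sources used here, and its part was not tested.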

How the results depend on the processing

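Every called member kept its direction in each alternative run for it. When single libraries were left out, 3 differences in share changed sign: fasted S662D minus fasted controls for all members (-0.259 to 0.128 percentage points) and for the mRNAs (-0.282 to 0.0857), and fasting in S662D for the tRNAs (-0.000177 to 0.000430). In what follows, percentages in brackets are the share of all genes called in the same run. For fasting in controls, controls 1 to 5 alone gave 3 calls (7.4%) and controls 6 to 10 alone 1 (1.71%). For fasting in S662D, library size alone gave 1 call (3.27%), and the libraries with (3.71%) and without the digit (0.0373%) gave 0 each. For S662D against control, fed, 1 call each came with library size alone (4.58%), without robust estimation (4.72%), with controls 1 to 5 alone (9.79%) and with DESeq2 (7.89%). The digit libraries gave 4 (16.9%) and only the groups compared 5 (5.86%). For the fasted comparison, DESeq2 (7.48%) and only the groups compared (1.67%) gave 1 call each (DESeq2 gave mt-Tk no adjusted p). The digit as a term (0.111%), the libraries without the digit (0.112%), controls 1 to 5 (9.45%) and controls 6 to 10 (0.269%) gave 0. The digit libraries gave 5 (17.1%). For the labelled knockout against control, controls 6 to 10 gave 1 (0.556%). Against S662D, no low-count filter (2.51%), only the groups compared (2.76%), the digit as a term (0.233%) and the libraries without the digit (0.139%) gave 0. The digit libraries gave 7 (16.2%). Library size alone (7.03%), scaling without mitochondrial genes (7.26%) and no robust estimation (7.27%) gave 2, each without mt-Tk. With no low-count filter the added comparisons gave 11 calls (controls 1 to 5), 4 (controls 6 to 10), 11 (their difference) and 11 (the digit), and the difference gave 5 without robust estimation. The share over all genes was not taken for these runs. In the main fit of these comparisons it was 11.5%, 5.74%, 14.4% and 16.7%, in the same order. That fit kept the filter, so its shares are no like background for the runs without it. For fasting in controls, dropping the filter lowered the share from 3.88% to 1.69%. Leaving out each library gave 0 to 0 calls for fasting in controls, 0 to 3 for fasting in S662D, 0 to 0 for the difference between these responses, 0 to 1 for S662D against control fed and 1 to 2 fasted, 0 to 0 for labelled knockout minus control and 0 to 3 for labelled knockout minus S662D, 1 to 7 in controls 1 to 5, 0 to 2 in controls 6 to 10, 2 to 6 for their difference and 3 to 5 for the digit (3 without fed replicate 5). In these runs 1.71% to 3.21% of all genes were called for fasting in S662D. The share was 0.362% to 9.15% for S662D against control fed, 0.845% to 9.89% fasted and 2.86% to 10.2% for labelled knockout minus S662D. It was not taken for the added comparisons.

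With the replicate number as a block, the counts were 0 for fasting in controls, 4 for fasting in S662D (2.42% of all genes) and 0 for the difference between these. They were 4 for S662D against control fed (6.22%), 1 fasted (6.05%), 0 for labelled knockout minus control and 2 for labelled knockout minus S662D (6.91%). The numbers do not pair the libraries: 6 of 55 correlations of same-numbered libraries were above 0.1, and in 14 of 110 cases a library correlated best with its own number. Depth limits the tRNAs most, since mt-Tk had 2 to 32 counts per library.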
